A study of Mus musculus with 4 samples.

Results

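The carbonic anhydrase genes Car1, Car2, Car3, Car4, Car5b, Car7, Car8, Car9, Car12 and Car13 were compared between 2 sorted fractions of mouse stomach epithelium. They were chosen by name, and the 10 genes are 10 of 55335 rows in the deposited expression table. The fractions came from the stomach corpus of C57BL/6 mice of 6-8 weeks with the genotype Iqgap3-2A-tdTomato, in which a red fluorescent protein reports expression of the scaffold gene Iqgap3. Living cells bearing the epithelial surface protein EpCAM were sorted into an Iqgap3high fraction (IQ3pos) and an Iqgap3low/neg fraction (IQ3neg), so both fractions carry the reporter allele, and no agent was given to either. Each fraction has 2 libraries. IQ3pos_1909A and IQ3neg_1909B each hold pooled cells of 3 mice, and IQ3pos_1910A and IQ3neg_1910B of 4 mice. The study as titled concerns proliferation of corpus stem cells, and the comparison here asks how the RNA of acid-base enzymes differs between cells high and low for Iqgap3.

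Carbonic anhydrases are zinc enzymes that turn carbon dioxide and water into bicarbonate and a proton, and back. In the stomach corpus the parietal cell uses the proton for acid secretion and passes the bicarbonate to the blood, while surface mucous cells secrete bicarbonate into the mucus that shields the epithelium. The isozymes differ by place: Car1, Car2, Car3, Car7 and Car13 are cytosolic, Car5b is mitochondrial, Car4 is anchored to the outer face of the plasma membrane, and Car9 and Car12 span the membrane. Car8 is a carbonic anhydrase-related protein without catalytic activity.

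Values are CPM, counts per 1000000 reads in genes, and differences are in log2(CPM + 1), IQ3pos minus IQ3neg. Libraries held from 90714929 to 418401262 reads in genes. Iqgap3 itself, in CPM, was 0.220 (IQ3pos) against 0.0435 (IQ3neg) for 3 mice and 9.32 against 0.452 for 4 mice, so it was higher in IQ3pos within each pool size, but the groups overlap. CPM are shares of a library, and the median of the 13019 genes tested (those with a mean of at least 1 CPM) was 0.68 higher in IQ3pos, 1.60-fold. After TMM scaling, a correction for library composition, that median was 0.04. Nothing in the labels says whether the pools are separate experiments, so p-values measure only the spread between libraries, which may be technical.

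The promoters of Car9 and Car4, both surface enzymes, are printed as a description, and their part in the levels was not tested. Sequences are from RefSeq promoter windows on GRCm38.p6, 250 bases before to 50 after the start site, and capitals mark a motif. Of the 10 genes, 5 have such a window (Car4, Car5b, Car7, Car9 and Car12).
Car9, chr4:43506776-43506965, plus strand: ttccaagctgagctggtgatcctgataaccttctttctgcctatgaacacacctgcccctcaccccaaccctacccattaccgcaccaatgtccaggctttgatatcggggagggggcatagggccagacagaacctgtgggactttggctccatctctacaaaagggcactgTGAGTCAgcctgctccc
Car9, chr4:43506996-43507025, plus strand: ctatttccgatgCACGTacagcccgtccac
Car4, chr11:84957504-84957753, plus strand: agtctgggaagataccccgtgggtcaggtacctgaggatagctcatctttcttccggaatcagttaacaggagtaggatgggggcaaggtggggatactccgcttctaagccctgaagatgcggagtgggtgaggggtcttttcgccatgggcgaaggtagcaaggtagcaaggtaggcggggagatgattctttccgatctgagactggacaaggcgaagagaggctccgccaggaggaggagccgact

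In the Car9 window, the letters ACGTG, the core that hypoxia-inducible factors bind, were found on the minus strand (CACGT as printed), with the first base 18 bases before the RefSeq start site. GENCODE starts the gene at 43506966, so it counts this stretch as transcribed. The letters TGANTCA, the AP-1 motif, began 77 bases before the start site. Over both strands, 19.6% of the 32851 RefSeq promoter windows hold ACGTG and 7.81% hold TGANTCA. The printed Car4 sequence stops at the start site and holds neither motif. Its whole window does hold ACGTG, as that of Car9 does, on the minus strand from 3 bases after the start site. The GC box letters GGGCGG, found in 35.7% of windows, were in those of Car5b, Car7 and Car12. The TATA box letters TATAAA, found in 13.6% of windows, were in that of Car4, from 43 bases after the start site. A match of letters is a description and shows no binding.

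Car2, a cytosolic isozyme, stood highest of the family in every library, and more of it was found in IQ3pos. It lies on chromosome 3 of GRCm38 at 14886273 to 14900770. The IQ3pos libraries of 3 and 4 mice gave 3507 and 4186 CPM, and the IQ3neg libraries 324 and 841 CPM. Both IQ3pos libraries lay above both IQ3neg libraries, and the IQ3neg pair was the more uneven. The log2 difference was 2.87 (SE 0.47), which did not pass over all genes tested (limma adjusted p = 0.0659). It was 2.11 with TMM scaling and 1.88 without the 20 most abundant genes. On unscaled CPM, within the 3-mouse pools the ratio was 10.8 and within the 4-mouse pools 4.98, with 95% exact intervals for counting error of 10.7 to 10.9 and 4.96 to 5.00.

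Car13, another cytosolic isozyme, showed the widest gap of the genes higher in IQ3pos. It is on the same chromosome at 14641727 to 14663002. It stood at 38.9 and 60.4 CPM in the IQ3pos libraries of 3 and 4 mice, and at 0.0174 and 3.11 CPM in the matching IQ3neg libraries. The groups did not overlap, but the IQ3neg libraries were far apart, since the 3-mouse one rests on 2 reads and the 4-mouse one on 1300. The log2 difference was 4.60 (SE 0.98, limma adjusted p = 0.0783). Among the 4-mouse pools the ratio was 19.5 (18.4 to 20.6), and among the 3-mouse pools it was 2236 (619 to 18470).

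Car1 and Car3 lie between Car13 and Car2 on chromosome 3, at 14766216 to 14808368 and at 14863512 to 14872523, and were scarcely read. Car1, a main carbonic anhydrase of red blood cells, gave 1 read in all, in IQ3pos_1910A. At 0 reads the other libraries allow up to 0.0331 CPM in IQ3pos_1909A, 0.0261 in IQ3neg_1909B and 0.00717 in IQ3neg_1910B. Car3, an isozyme of muscle and fat with weak activity, was at 0 and 0.0251 CPM in the IQ3pos libraries and at 0.0348 and 1.94 CPM in the IQ3neg libraries of 3 and 4 mice. Its level above 1 CPM was thus in IQ3neg_1910B alone, from 813 reads. Car7, the remaining cytosolic gene and known from brain, had the same shape, with 758 reads (1.81 CPM) in IQ3neg_1910B and at most 6 reads in any other library. Within the 3-mouse pools Car7 had 6 reads in IQ3pos and 2 in IQ3neg, a ratio of 3.80 (0.680 to 38.5), so no direction could be read there.

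Car5b, the mitochondrial isozyme on chromosome X at 163976822 to 164027997, was higher in both IQ3pos libraries. It stood at 13.1 and 15.8 CPM in IQ3pos and at 0.313 and 5.03 CPM in IQ3neg, in the order of 3 and 4 mice. The IQ3pos libraries were close to each other, and the IQ3neg libraries differed widely. On the log2 scale the difference was 2.45 (SE 1.09), short of the threshold (limma adjusted p = 0.251), and it was 1.35 without IQ3neg_1909B.

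**Figure D1:**
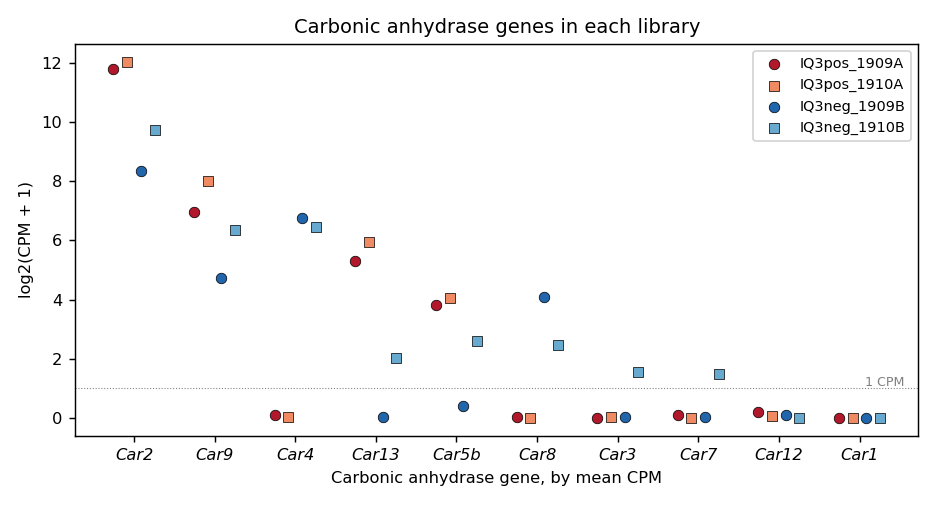
Level of each of the 10 carbonic anhydrase genes in each of the 4 libraries, as log2(CPM + 1) on the vertical axis, with genes ordered by mean CPM; each point is 1 library, circles are 3-mouse pools and squares 4-mouse pools, and the dotted line marks 1 CPM. Car2, Car9, Car13 and Car5b have both IQ3pos points (red and orange) above both IQ3neg points (blue), and Car4 and Car8 have both IQ3pos points near 0.

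Car4, the enzyme anchored on the cell surface, showed the deepest deficit in IQ3pos. The gene is on chromosome 11 at 84957786 to 84966044. The IQ3pos libraries of 3 and 4 mice gave 6 and 8 reads, or 0.0661 and 0.0287 CPM, while the IQ3neg libraries gave 12444 and 35818 reads, or 108 and 85.6 CPM. The fractions were thus cleanly separated, and the libraries of each fraction were alike. The log2 difference was −6.54 (SE 0.76, limma adjusted p = 0.0605). On TMM-scaled CPM it was −6.93 (SE 0.72) and passed (limma adjusted p = 0.0478), as did edgeR's quasi-likelihood test on the recovered reads (adjusted p = 0.0209). IQ3neg held 1636 times the IQ3pos level among the 3-mouse pools (751 to 4458) and 2987 times among the 4-mouse pools (1516 to 6919).

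Car9, the membrane-spanning isozyme known as a target of hypoxia-inducible factors, went the other way. It lies on chromosome 4 at 43506966 to 43513729. It stood at 122 and 254 CPM in IQ3pos and at 25.6 and 80.5 CPM in IQ3neg, for 3 and 4 mice. The groups did not overlap, and in both fractions the 4-mouse library was the higher one. On the log2 scale the difference was 1.93 (SE 0.66), short of the threshold (limma adjusted p = 0.169), and it was 1.12 without IQ3neg_1909B. Scaling between libraries lowered it to 1.17 with TMM, 1.14 with DESeq2 size factors and 0.96 without the 20 most abundant genes. On unscaled CPM the ratio was 4.77 (4.58 to 4.97) within the 3-mouse pools and 3.15 (3.11 to 3.19) within the 4-mouse pools. Car12, the other membrane-spanning member, had at most 13 reads and 0.143 CPM in any library, and its groups overlapped.

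Car8, the inactive relative, which binds the inositol trisphosphate receptor, was read almost wholly in IQ3neg. It lies on chromosome 4 at 8143362 to 8239041. It was at 0.0220 and 0 CPM in IQ3pos, from 2 and 0 reads, and at 16.0 and 4.57 CPM in IQ3neg, from 1836 and 1914 reads. IQ3neg was 724 times higher among the 3-mouse pools (200.2 to 5983) and at least 426-fold higher among the 4-mouse pools, against a floor of 3 reads in that IQ3pos library. The difference of −3.27 on the log2 scale (SE 1.02) was short of the threshold in limma (adjusted p = 0.146). Of 16 alternatives, the DESeq2 Wald test alone called it (adjusted p = 1.80e-05), and that test called 7.53% of its genes lower.

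Across the family, 6 of the 10 genes reached a mean of 1 CPM and were tested, and 0 were called higher and 0 lower in limma on CPM, where 0% of all 13019 genes were called in either direction. At an unadjusted p under 0.05, 3 were higher (Car2, Car9 and Car13) and 2 lower (Car4 and Car8), where 18.2% and 4.98% of all genes were. In limma on TMM-scaled CPM, 0 were called higher and 1 lower (Car4), against 0.0461% and 0.184% of all genes. In edgeR, which tested Car7 and Car12 as well, 0 were higher and 1 lower (Car4), against 0.0535% and 0.214%. The DESeq2 Wald test called 0 higher and 2 lower (Car4 and Car8), against 3.07% and 7.53%. With DESeq2-scaled CPM 0 were higher and 1 lower, against 0.0538% and 0.261%. With a pseudocount of 5, 1 was higher (Car2) and 1 lower, against 1.84% and 0.415%, and with a mean of at least 5 CPM 2 were higher (Car2 and Car13) and 1 lower, against 7.83% and 1.06%. With the number in the library names as a block, 3 were higher (Car2, Car9 and Car13) and 1 lower, against 9.34% and 0.96%, and with TMM scaling as well 1 was higher (Car2) and 1 lower, against 1.86% and 1.19%. In each of these the lower gene was Car4. The settings that called Car2 also called from 1.84% to 9.34% of all genes higher. On CPM and on TMM-scaled CPM alike, 4 of the 6 had both IQ3pos libraries above both IQ3neg libraries and 2 had both below. Among all tested genes, 40.9% were above and 14.2% below on CPM, and 24.7% and 23% on TMM-scaled CPM. The median difference of the 6 was 2.19, or 1.51 above that of all genes, and 1.51 above it with TMM scaling. It covers only the genes that reached the filter, which a gene could do through 1 fraction alone, and it hides the split between the 4 higher and the 2 lower genes.

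**Figure D2:**
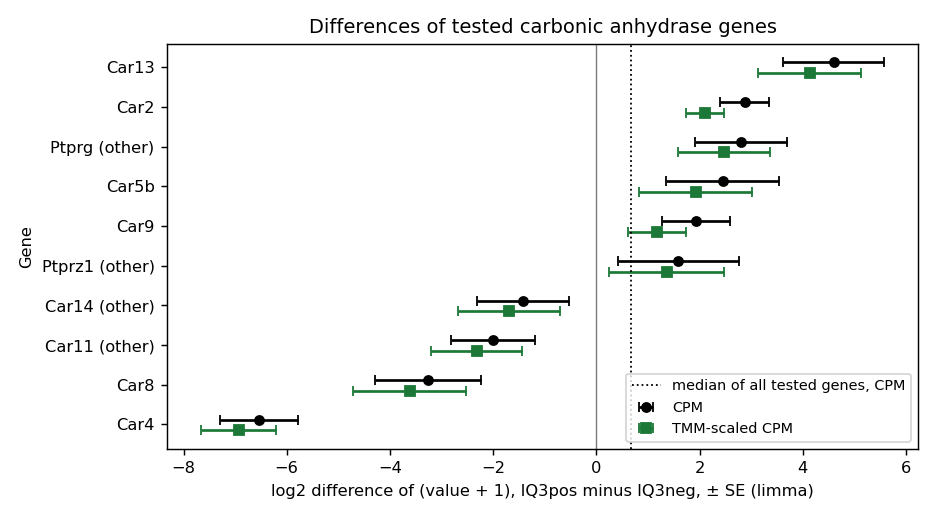
log2 difference of (value + 1), IQ3pos minus IQ3neg, on the horizontal axis for the 10 tested genes with a carbonic anhydrase domain, with bars for limma's standard error; black circles are CPM, green squares TMM-scaled CPM, and the dotted line is the median of all tested genes on CPM (0.68). Genes marked other are outside the named 10, namely Car11, Car14 and the receptors Ptprg and Ptprz1. Car4 lies at −6.54 on CPM and −6.93 on TMM-scaled CPM, and Car13 at 4.60 and 4.13.

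Levels between genes were compared per kilobase of exon (GENCODE vM21), in CPM per kb. In IQ3pos the order was Car2 at 1588 ± 198, Car9 at 81.5 ± 40.3, Car13 at 21.6 ± 6.63 and Car5b at 2.27 ± 0.296 (SD, n = 2), with neighbours in that order not overlapping, and the other 6 genes were below 0.05 in the mean. In IQ3neg the order was Car2 at 240 ± 151, Car4 at 49.3 ± 8.12, Car9 at 23.0 ± 16.9 and Car8 at 2.67 ± 2.09. These 4 did not overlap as neighbours, but Car8 overlapped with Car13 (0.680 ± 0.950), and Car13, Car5b, Car3 and Car7 overlapped with one another. Car4, second in IQ3neg, averaged 0.0241 CPM per kb in IQ3pos.

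Shares within a library do not depend on scaling between libraries. Of the summed level of the 10 genes per kb, Car2 made up 95.3% and 92.6% in IQ3pos and 65.6% and 80.7% in IQ3neg, with the 3-mouse library first. Car4 made up 26.9% and 10.1% in the IQ3neg libraries, and 0.00221% and 0.000781% in the IQ3pos libraries. The surface enzymes traded places: per kb, Car4 was 4.96 and 1.25 times Car9 in IQ3neg, while Car9 was 1576 and 7548 times Car4 in IQ3pos, ratios that rest on 6 and 8 Car4 reads. Car2, by contrast, was 27.3 and 15.7 times Car9 in IQ3pos and 12.1 and 9.93 times in IQ3neg. Car8 made up 2.03% and 0.276% in IQ3neg.

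**Figure D3:**
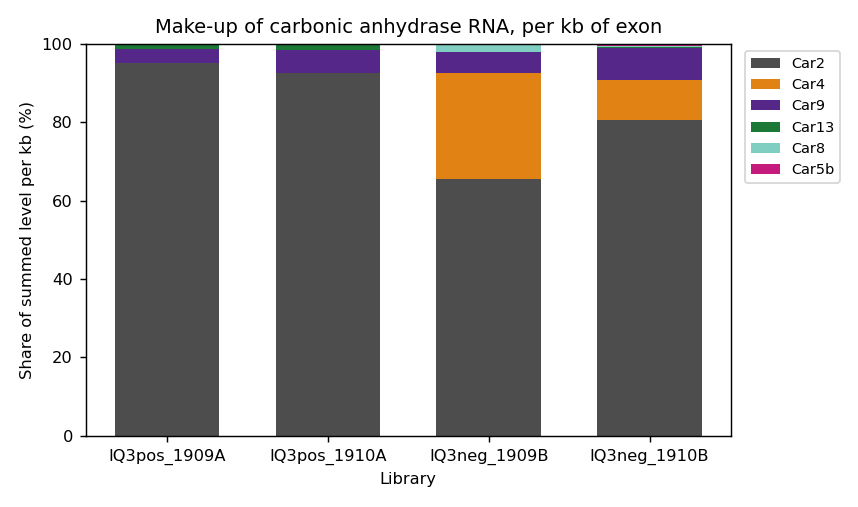
Share, in percent, of each of the 6 tested carbonic anhydrases in the summed level per kb of exon of the 10 genes, on the vertical axis, for each library; each bar is 1 library. Car2 fills 92.6% or more of both IQ3pos bars, and Car4 takes 26.9% and 10.1% of the IQ3neg bars.

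Of the 6 other carbonic anhydrase genes in the table, Car11 and Car14 reached the filter, and both were lower in IQ3pos. Car11, an inactive secreted relative, stood at 0.0441 and 0.0143 CPM in IQ3pos and at 3.44 and 2.85 in IQ3neg, where the IQ3pos values rest on 4 reads each. Car14, a membrane-spanning isozyme, stood at 0.0220 and 0.0215 CPM against 3.62 and 0.621. Neither passed in limma (adjusted p = 0.219 and 0.395), and both were called lower by the DESeq2 Wald test (adjusted p = 1.01e-06 and 0.000101), which called 7.53% of all its genes lower. That test also called Car10, an inactive relative, higher (adjusted p = 0.0364), against 3.07% of its genes. Car5a, the second mitochondrial isozyme, and Car10 were highest in IQ3pos_1910A, at 2.02 and 0.123 CPM per kb, and at most 0.117 and 0.0104 in any other library. Car6, the salivary enzyme, and Car15 had at most 3 reads in any library.

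The receptor tyrosine phosphatases Ptprg and Ptprz1 carry an extracellular carbonic anhydrase-like domain. Ptprg stood at 4.78 and 7.51 CPM in IQ3pos and at 0 and 0.0191 CPM in IQ3neg, the latter from 0 and 8 reads. It was at least 183-fold higher among the 3-mouse pools, against a floor of 3 reads in that IQ3neg library, and 393-fold higher among the 4-mouse pools (199 to 911). The difference of 2.80 on the log2 scale (SE 0.89) was short of the threshold in limma (adjusted p = 0.149) and passed in the DESeq2 Wald test (adjusted p = 3.25e-05), which called 3.07% of its genes higher. Ptprz1 was at 7.70 CPM in IQ3pos_1910A and at most 0.132 in the other libraries.

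Partners of the enzymes were described from lists of transporters, chosen with earlier results of these data known. Of 15 bicarbonate transporters, 8 were tested and 0 called in limma on CPM or on TMM-scaled CPM, with a median 0.08 below that of all genes (−0.08), or 0.22 above with TMM scaling. Without overlap on CPM 2 were higher and 0 lower, where 40.9% and 14.2% of all genes were, and on TMM-scaled CPM 1 was higher and 2 lower, where 24.7% and 23% were. The DESeq2 Wald test called 1 higher (Slc26a3, a chloride-bicarbonate exchanger), against 3.07% of its genes. Slc4a7, a sodium-bicarbonate cotransporter, stood at 1.66 and 24.1 CPM in IQ3pos and 12.7 and 24.8 in IQ3neg. Slc4a2, which exchanges chloride for bicarbonate at the base of parietal cells, stood at 6.71 and 4.15 against 4.78 and 9.98 CPM, and Slc4a4, another cotransporter, at 4.88 and 11.7 against 3.18 and 2.06. On CPM the first 2 overlapped between fractions and Slc4a4 did not. On TMM-scaled CPM the first 2 were lower in IQ3pos without overlap and Slc4a4 overlapped, its log2 difference being 0.65 in place of 1.28.

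Of 14 genes of proton extrusion, 11 were tested and 0 called in either of these limma tests, with a median 1.49 above that of all genes (1.55 with TMM scaling). Without overlap 8 were higher and 1 lower on CPM, where 40.9% and 14.2% of all genes were, and 8 and 2 on TMM-scaled CPM, where 24.7% and 23% were. Atp4b and Atp4a, the subunits of the gastric proton pump, stood at 2636 ± 635 and 795 ± 80.4 CPM in IQ3pos and at 304 ± 6.08 and 156 ± 55.9 in IQ3neg (SD, n = 2). Slc9a4, a sodium-proton exchanger of parietal cells, stood at 320 and 284 against 36.6 and 92.9 CPM. Atp4b passed in edgeR (adjusted p = 0.0297). Of 18 hypoxia response genes, the set of pathway partners nearest to Car9, 15 were tested and 0 called in either limma test, with a median relative to all genes of −0.26 (−0.21 with TMM scaling). Without overlap 2 were higher and 3 lower on CPM, where 40.9% and 14.2% of all genes were. On TMM-scaled CPM the counts were 2 and 5, where 24.7% and 23% of all genes were. The DESeq2 Wald test called 1 higher (Slc16a3, a lactate transporter, adjusted p = 0.0450), against 3.07% of its genes. Pgk1 and Ldha, both enzymes of glycolysis, stood at 248 ± 26.2 and 376 ± 245 CPM in IQ3pos against 55.1 ± 23.8 and 150 ± 85.9 in IQ3neg. On CPM Ldha overlapped between fractions and Pgk1 did not.

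Cell type markers moved with these genes, and fewer cells of a type cannot be told apart from less RNA per cell in bulk samples. Counts without overlap are read against 40.9% of all genes higher and 14.2% lower on CPM, and 24.7% and 23% on TMM-scaled CPM. The marker lists were chosen with earlier results of these data known, so their counts are a description and no independent support. Beside Car2, 13 of 15 parietal markers were higher in both IQ3pos libraries, and the list summed to 3720 to 4879 CPM against 549 to 724 in IQ3neg. It was led by the proton pump genes Atp4b and Atp4a, which are also on the proton extrusion list. Of 8 tested pit cell markers 7 were higher in both IQ3pos libraries, while Psca, the most abundant of them ahead of Gkn1, was lower. All 8 markers of dividing cells, led by Top2a and Cdk1, were higher (1188 to 2732 against 123 to 247 CPM). Beside Car4, Car8, Car11 and Car14, 10 of 12 enteroendocrine markers, led by Sst and Ghrl, were lower in both IQ3pos libraries (285 to 434 against 11398 to 17023 CPM), as were 7 of 9 chief cell markers, led by Clps and Pgc (19720 to 51081 against 404527 to 415859). Of 4 mucous neck markers 1 (Tff2) was higher without overlap on CPM and 0 were lower, and Gkn3 overlapped. Of 7 tuft cell markers 3 were lower without overlap, and Rgs13, the highest of that list, overlapped. The tuft list summed to 616 and 167 CPM in IQ3pos and to 457 and 1386 in IQ3neg, for 3 and 4 mice. Its direction thus differed between the pool sizes. On TMM-scaled CPM the counts were 10 of 15 parietal, 7 of 8 pit and 8 of 8 dividing cell markers higher, and 11 of 12 enteroendocrine, 8 of 9 chief and 6 of 7 tuft cell markers lower. Of the 4 mucous neck markers 1 was higher and 2 lower on that scale. The part of these cell types in the results was not tested.

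Markers of cells outside the epithelium were low, with exceptions. Endothelial markers, of interest since capillaries carry Car4, summed to 0.154 to 0.639 CPM in IQ3pos and 0.679 to 1.96 in IQ3neg, and 5 of 6 stayed under 1 CPM in every library, Plvap being the other and Kdr the next. For 3 and 4 mice, Plvap stood at 0.0220 and 0.0143 CPM in IQ3pos against 1.90 and 0.669 in IQ3neg. Kdr went the other way, at 0.375 and 0.0322 against 0.0174 and 0.00239. The DESeq2 Wald test called Plvap lower (adjusted p = 5.80e-05), where it called 7.53% of its genes lower. Red blood cell genes, led by Hba-a1 and Hba-a2, summed to 3.40 and 0.523 CPM in the IQ3pos libraries of 3 and 4 mice and to 13.9 and 3.20 in those of IQ3neg. Adipocyte genes, with Cidec and Fabp4 highest, summed to at most 1.50 CPM, and to 0.0717 CPM in IQ3neg_1910B. Fibroblast and muscle genes, led by Dcn and Col3a1, summed to 28.6 CPM in IQ3neg_1909B and at most 2.22 in the other libraries. That 2.22 CPM was in IQ3neg_1910B, where Car3 stood at 1.94 CPM, and the source of Car3 was not tested. Immune genes, led by Lyz2 and Ptprc, summed to 276 and 381 CPM in the 3-mouse pools and 51.2 and 72.8 in the 4-mouse pools, IQ3pos first.

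**Figure D4:**
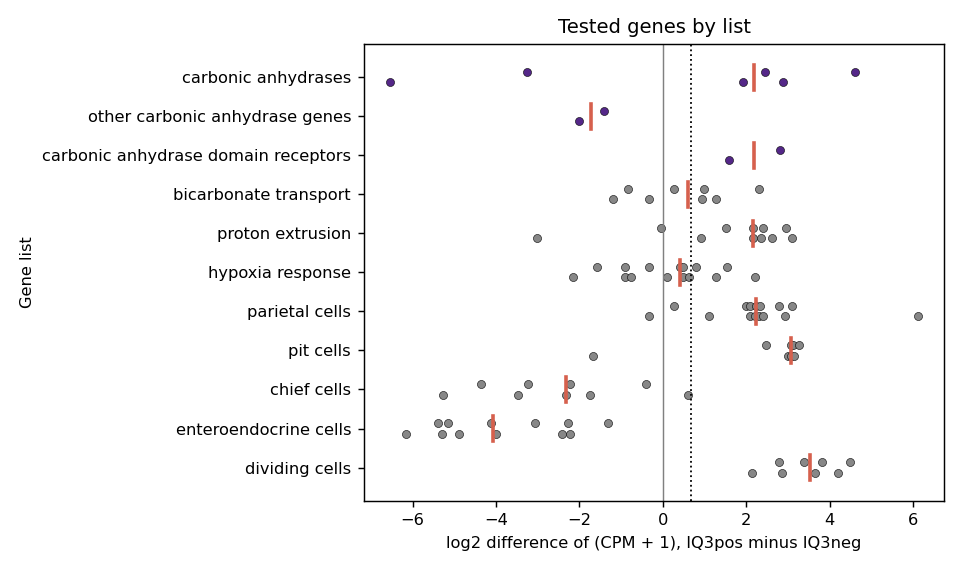
log2 difference of (CPM + 1), IQ3pos minus IQ3neg, on the horizontal axis for each tested gene of 11 lists; points are genes (purple for carbonic anhydrase domains, grey for the rest), red bars are list medians, and the dotted line is the median of all tested genes (0.68). The carbonic anhydrases spread from −6.54 to 4.60, the enteroendocrine genes lie below 0, and the genes of dividing cells lie above 0.

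The genes nearest in pattern were taken by the smallest Euclidean distance between the 4 values of log2(CPM + 1), each gene centred on its mean, among 13019 genes, leaving out carbonic anhydrases and unnamed gene models. For Car2 these were Slc9a2 (distance 0.114), a sodium-proton exchanger of the stomach, Cotl1 (0.128), an actin-binding protein, and Mgst3 (0.168), a microsomal glutathione transferase. Slc9a2 stood at 66.3 and 79.8 CPM in IQ3pos and 4.69 and 14.8 in IQ3neg, and Mgst3 at 1451 and 1581 against 135 and 307. Cotl1 stood at 12.8 and 14.0 CPM against 0.139 and 2.09, a low gene whose change the scale of log2(CPM + 1) understates. Its nearness to Car2 therefore depends on that scale. For Car4 they were Pcsk2 (0.201), a prohormone convertase of endocrine cells, Scgn (0.352), the calcium-binding protein secretagogin, and Peg3 (0.562), an imprinted gene. Pcsk2 stood at 0.0551 and 0.0537 CPM in IQ3pos and at 96.2 and 74.2 in IQ3neg. With 4 libraries in 2 groups, such likeness describes these libraries only.

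**Figure D5:**
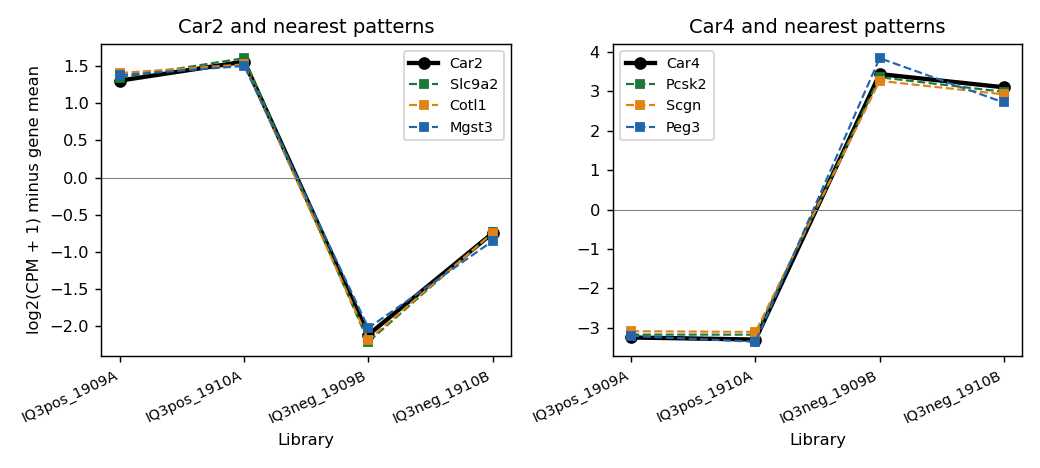
log2(CPM + 1) minus each gene's mean over the 4 libraries, on the vertical axis, by library; lines join the values of 1 gene. On the left Car2 (black) runs with Slc9a2, Cotl1 and Mgst3, high in IQ3pos and lowest in IQ3neg_1909B; on the right Car4 (black) runs with Pcsk2, Scgn and Peg3, high in both IQ3neg libraries.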

How the data were processed

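The deposited table, made by the authors, gives CPM per gene symbol and library from SMART-SeqII, a full-length cDNA method. Per the submitters' processing notes, the tools were STAR 2.7.1a, Subread 2.0.0 with featureCounts, and edgeR, and the build was GRCm38/mm10. Which annotation, strand setting and rule for multi-mapped reads applied is not given in the sources used here. All columns sum to 1000000, so no composition factor had been applied, and 100% of values came out within 0.05 of a whole read. Reads carry no molecular identifiers, so intervals and floors cover counting error only. A single read was worth from 0.00239 to 0.0110 CPM.

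Fractions were compared on log2(CPM + 1), a scale that understates changes of low genes, with limma-trend from limma 3.58.1 under R 4.3.3, over genes averaging 1 CPM or more. The test was two-sided, with no block and Benjamini-Hochberg adjustment at 0.05 over all 13019 genes. TMM factors, edgeR 4.0.16 and DESeq2 1.42.0 on the recovered reads, other pseudocounts and filters, a block and each library left out were alternatives. Scripts were tested on simulated data. Ratios within a pool size have 95% exact conditional binomial intervals. Exon lengths and coordinates are from GENCODE vM21 (GRCm38), 1-based.

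The members and lists were chosen with earlier results of these data known. Named genes are the 10 members, the other genes with a carbonic anhydrase domain, the 3 transporters of highest mean CPM per list (and any past the threshold in limma on CPM or TMM-scaled CPM), the 2 highest of the hypoxia list and of each marker list, and the 3 nearest patterns to Car2 and Car4. The motifs, Slc26a3 and Slc16a3 were chosen after values were seen. Of the 18 hypoxia symbols 17 were found in the table, of the 10 pit symbols 9 and of the 10 chief symbols 9. Protein sequences were not used here, and 1 gene that the rule names is not reported here.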

Additional observations from a re-analysis of the deposited data

How the results depend on the processing

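All 6 tested members kept their direction under every one of the 16 alternatives each. For many of these that was fixed in advance, since the fractions did not overlap on CPM for any of the 6. Another pseudocount or filter, a library left out or the block on CPM could then not reverse a sign. The number called higher, 0 in the main test, was 1 with a pseudocount of 5 (Car2) and 2 with a mean of at least 5 CPM (Car2 and Car13), a setting that tests fewer genes. The number called lower, 0 in the main test, was 1 with a pseudocount of 5, a mean of at least 5 CPM, TMM-scaled CPM, DESeq2-scaled CPM and edgeR (Car4 in each), and 2 in the DESeq2 Wald test (Car4 and Car8). With a library left out, 1 fraction rests on 1 library, so only the size of a difference is read there. The median relative to all genes was 0.024 with no filter on low values, where all 10 members and many genes near 0 are included, and 0.30 in the DESeq2 Wald test; it ranged from 0.69 (without IQ3neg_1909B) to 2.23 (without IQ3neg_1910B) with a library left out. The cause was not tested beyond that. The difference of Gkn3 reversed to −0.010 with DESeq2-scaled CPM and −0.20 without the 20 most abundant genes. With a library left out it ranged from −0.36 (without IQ3pos_1910A) to 1.94, that of Lyz2 from −1.61 to 0.85 (positive without IQ3neg_1909B, and 0.74 without IQ3pos_1910A), that of Slc4a2 from −0.80 to 0.12 (without IQ3neg_1910B) and that of Slc4a7 from −2.82 to 0.42 (without IQ3pos_1909A). The cause was not tested. Of proton extrusion genes, 4 were called with a mean of at least 5 CPM (7.83% of all genes higher and 1.06% lower), 2 with a pseudocount of 5 (1.84% and 0.415%), 1 with DESeq2-scaled CPM (0.0538% and 0.261%) and 1 in edgeR (0.0535% and 0.214%).

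The library names share a number between fractions, but the labels do not say that it marks shared mice. Deviations from the group means correlated at 0.148 across genes, which are not independent, between libraries of a number. With the number as a replicate block, 3 members were called higher (Car2, Car9 and Car13) and 1 lower (Car4), while 9.34% and 0.96% of all genes were, and 4 proton extrusion genes were called. The block with TMM scaling, added after seeing the data, called 1 higher (Car2), 1 lower (Car4) and 2 proton extrusion genes (1.86% and 1.19% of all genes). In edgeR with the block, also added, 0 of each were called, where 0% of all its genes were in either direction, and Gkn3 turned to −0.021. Depth limits Car1, Car12 and the IQ3pos values of Car4 and Car8, which rest on at most 13 reads.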
